A study of Homo sapiens with 24 samples.

Results

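The genes described here make and use miRNAs, and they were followed through a set of 24 two-colour arrays of human cancer cell lines. There were 10 genes, of 27337 gene or transcript names on the probes of both array designs, chosen by name as DROSHA, DGCR8, XPO5, DICER1, EIF2C1, EIF2C2, EIF2C3, EIF2C4, TNRC6A and TNRC6B. They were read by 14 probes, out of 35649 that both designs share, and all 14 were among the 22199 probes that were tested. EIF2C1 to EIF2C4 are the array's older names of the Argonaute genes AGO1, AGO2, AGO3 and AGO4, by the names of RefSeq GRCh38.p14.

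miRNAs are cut from long primary transcripts in the nucleus, exported, cut again in the cytoplasm and loaded into an Argonaute protein, which they guide to matching mRNAs. DROSHA is the nuclear RNase III enzyme of the first cut and DGCR8 its RNA-binding partner. XPO5 (exportin-5) carries the hairpins out of the nucleus, and DICER1 is the RNase III enzyme that trims them to a duplex. The Argonaute proteins hold the guide strand, and TNRC6A and TNRC6B (GW182 proteins) are the scaffolds through which they call in deadenylases. Transfected small RNA duplexes are generally taken up at the Argonaute step, where they meet the cell's own miRNAs.

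The arrays held RNA of cells treated with 1 agent, labelled with Cy5, against RNA of control cells of the same line, labelled with Cy3. A miRNA was transfected on 12 arrays (7 miRNAs) and an siRNA on 6 arrays (si-CAV2, si-LAMB3 and si-GOLM1, each in a pair of lines), both with Lipofectamine RNAiMAX and both against cells given a control miRNA or control siRNA. The other 6 arrays had no transfection: genistein in PC3 and DU145 and wogonin in SAS and FaDu (both flavonoid compounds of plants), and the chemokine CXCL10 in 786O for 12 h and for 24 h. The control cells were labelled untreated for genistein and CXCL10 and DMSO for wogonin, whereas the paper calls the genistein control vehicle. The lines were PC3, DU145 and LNCap (prostate cancer), FaDu and SAS (head and neck squamous cell carcinoma) and A498 and 786O (renal cell carcinoma). Each agent was run on 1 array per line and time, so the arrays of a class differ in agent and line and are not replicates. The p-values for ratios below measure the spread over agents and lines. Those for control levels measure the spread of control channels within lines. The dyes were never swapped, so a ratio against 0 cannot be told apart from dye bias, and differences between classes were tested instead.

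The 7 transfected miRNAs are shown because they are what the Argonaute proteins were given to load. The labels do not name the arm, and the sequences are those of the usual guide arm in RefSeq GRCh38.p14, written 5′ to 3′, with the seed (bases 2 to 8) in capitals.
miR-145-5p: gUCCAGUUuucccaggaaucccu
miR-143-3p: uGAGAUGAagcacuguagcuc
miR-23b-3p: aUCACAUUgccagggauuaccac
miR-27b-3p: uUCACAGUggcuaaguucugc
miR-24-3p: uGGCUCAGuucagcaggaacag
miR-375-3p: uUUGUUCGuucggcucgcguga
miR-29a-3p: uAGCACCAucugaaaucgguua

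The 7 seeds were all different, so no 2 of these agents shared one. miR-145 (chr5:149430661-149430683) and miR-143 (chr5:149428978-149428998) lie next to each other on the forward strand, and miR-23b (chr9:95085265-95085287), miR-27b (chr9:95085505-95085525) and miR-24 (chr9:95086064-95086085, with a second copy at chr19:13836289-13836310) form a cluster. miR-375 (chr2:219001648-219001669) and miR-29a (chr7:130876748-130876769) lie alone among these. miR-145 was run in PC3, DU145 and LNCap, miR-27b in PC3, 786O and A498, miR-143 in DU145 and PC3, miR-23b and miR-24 in PC3, miR-375 in FaDu and miR-29a in SAS.

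The arrays lay on 3 slides of 8, each with 6 transfections and 2 other treatments. The share of spots with a signal well above background ran from 53% to 67.6% in the Cy3 channels and from 54% to 68.9% in the Cy5 channels, and log2 ratios of pairs of arrays correlated between -0.169 and 0.666. The siRNA target fell below its value on every array without that siRNA on 5 of 6 arrays. LAMB3, the exception, was at -0.89 in SAS and -2.50 in FaDu. The squamous markers were well above background in FaDu (5 of 5) and SAS (4 of 5), and the renal markers in A498 (5 of 5) and 786O (4 of 5).

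All member genes were expressed in these cells. Of their 14 probes, 12 passed the scanner's background test (well above background) in each of the 48 channels. EIF2C4 was not in 3 Cy3 channels (si-LAMB3 and wogonin in FaDu and miR-27b in A498), and XPO5 probe A_33_P3228375 was not in 1. The technical error that the scanner software gave for a member log2 ratio ranged from 0.204 to 0.425, with a median of 0.21.

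**Figure D1:**
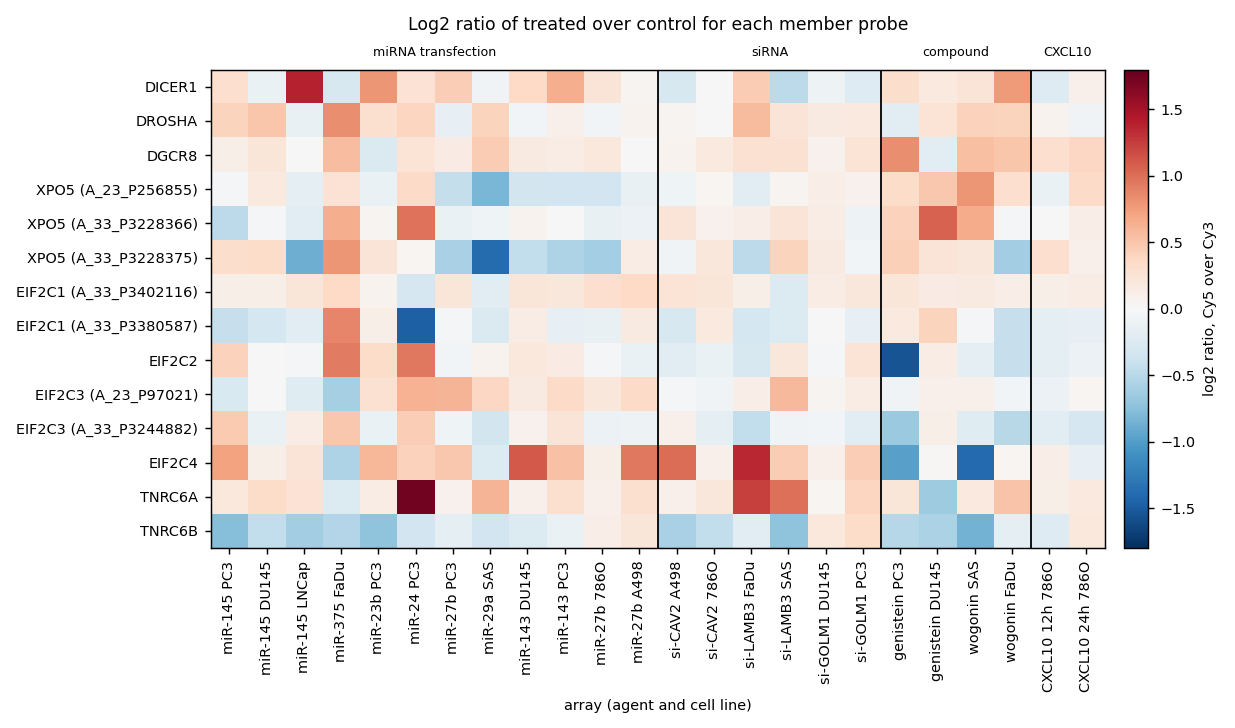
Log2 ratio of treated over control (colour) for the 14 member probes (rows) on the 24 arrays (columns), in blocks of miRNA, siRNA, compound and CXCL10 arrays. The strongest colours are single cells, such as TNRC6A at 1.74 with miR-24 in PC3 and EIF2C2 at -1.56 with genistein in PC3, and no row is red or blue throughout.

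Transfection was first compared with the other treatments, that is, with the compounds and CXCL10. On transfection arrays the control cells were transfected too. An effect that agent and control oligo share therefore cancels in the ratio, and this comparison cannot measure it. In this fit (limma with a term for the slide) 0 of the 14 member probes passed an adjusted p of 0.05, as did 0 of all 22199 probes (0%). At an unadjusted p under 0.05 there were 4 member probes and 3260 of all probes (14.7%). The member differences were as often above 0 (7 probes) as below (7), with a median of 0.02 on the log2 scale against -0.02 over all probes.

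DROSHA (chr5:31401473-31401532, hg19 as are all probe positions here) gave ratios from -0.15 to 0.84 over the 18 transfections, with a median of 0.17, and from -0.19 to 0.41 over the other 6 arrays, with a median of 0.16. The medians lay close together and the classes overlapped between -0.15 and 0.41, and the difference was 0.07 ± 0.13 (SE, adjusted p = 0.85 by limma). Its highest ratios came with miR-375 in FaDu (0.84) and si-LAMB3 in FaDu (0.57).

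DGCR8 (chr22:20098916-20098975) lay between -0.26 and 0.55 with transfection (median 0.17) and between -0.20 and 0.83 otherwise (median 0.44). The highest values among the other arrays were genistein in PC3 (0.83) and wogonin in SAS (0.54) and FaDu (0.499), while genistein in DU145 was the lowest at -0.20. The difference of -0.22 ± 0.12 did not pass (adjusted p = 0.40 by limma), and it was -0.12 without genistein in PC3, -0.35 without genistein in DU145 and -0.14 with another background correction (normexp).

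XPO5 had 3 probes, and all 3 gave a lower mean with transfection than without. The brightest, A_23_P256855 (chr6:43490583-43490642), was at 0.33 and 0.49 with genistein in PC3 and DU145, 0.80 and 0.31 with wogonin in SAS and FaDu, and -0.11 and 0.35 with CXCL10 at 12 h and 24 h. The 18 transfections ran from -0.82 to 0.34 with a median of -0.10. All 4 compound arrays were thus above 0, 11 of the 18 transfections were below it, and the classes overlapped.

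The difference for this XPO5 probe was -0.47 ± 0.14 (95% interval -0.75 to -0.18, adjusted p = 0.16 by limma). Within the 3 slides it was -0.38, -0.75 and -0.27. A_33_P3228366 (chr6:43494424-43494483) gave -0.30 ± 0.16 and A_33_P3228375 (chr6:43491398-43491457) gave -0.24 ± 0.22, so no XPO5 probe passed. Without the compound arrays A_23_P256855 was at -0.27 and A_33_P3228366 at -0.08, and without genistein in DU145 alone the latter was at -0.16. A_33_P3228375 was at -0.09 with normexp, -0.15 without background correction, -0.15 without CXCL10 or on the first design, and -0.43 without the compounds.

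Among the transfections, the lowest values of XPO5 probe A_23_P256855 came with miR-29a, miR-27b and miR-143. miR-29a in SAS gave -0.82. miR-27b gave -0.43 in PC3, -0.35 in 786O and -0.13 in A498, and miR-143 gave -0.32 in DU145 and -0.35 in PC3. The 6 siRNA arrays stayed between -0.19 and 0.12, and the software's own error of about 0.2 is as large as several of these values. The probes of XPO5 did not tell the same story on each array: with miR-29a in SAS the other 2 were at -0.07 and -1.39. A_33_P3228366 was near 0 with miR-27b (-0.12 in PC3, -0.14 in 786O, -0.11 in A498) and miR-143 (0.06 in DU145, -0.01 in PC3). Its lowest value came with miR-145 in PC3 (-0.47). The dim A_33_P3228375 gave -0.58, -0.61 and 0.13 with miR-27b and -0.45 and -0.56 with miR-143, in the same orders of lines.

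DICER1 (chr14:95552615-95552674) showed no difference between transfections and other treatments (-0.04 ± 0.21, adjusted p = 0.96 by limma). It ranged from -0.48 to 1.39 with transfection (median 0.14) and from -0.24 to 0.76 without (median 0.21). It was above 0.5 with miR-145 in LNCap (1.39), miR-23b in PC3 (0.80), wogonin in FaDu (0.76) and miR-143 in PC3 (0.66).

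**Figure D2:**
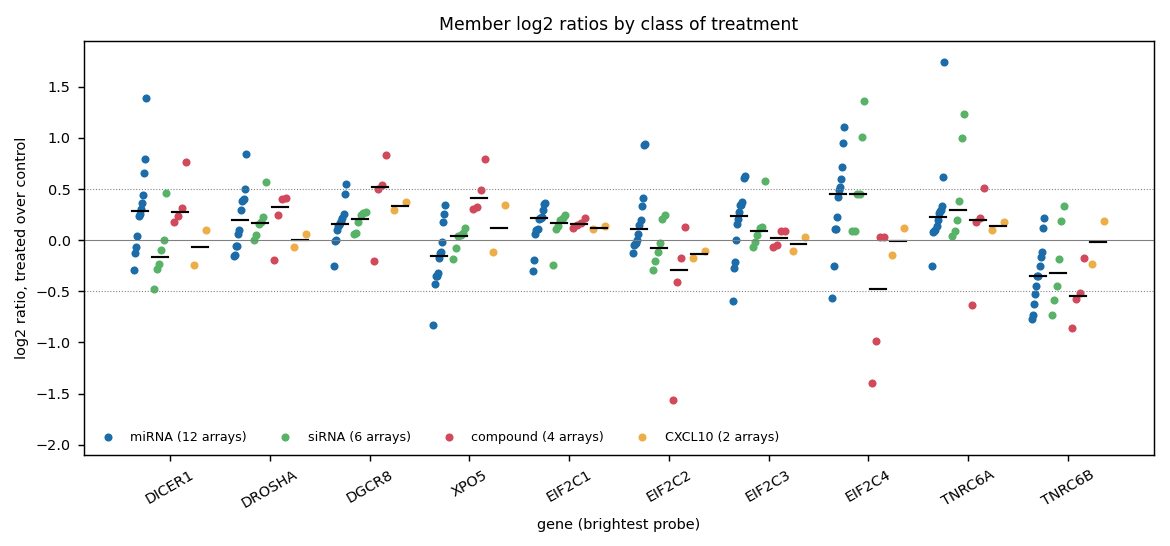
Log2 ratios of the 10 genes, each by its brightest probe, with 1 point per array and a bar at the median of each class (12 miRNA, 6 siRNA, 4 compound and 2 CXCL10 arrays; dotted lines at 0.5 and -0.5). EIF2C4 and EIF2C2 reach their lowest values, -1.40 and -1.56, on compound arrays, XPO5 lies above 0 on all 4 compound arrays, and the classes overlap for every gene.

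Of the Argonaute genes, EIF2C2, the member with slicing activity (chr8:141541947-141542006), ran from -0.29 to 0.94 with transfection (median 0.03). The other arrays gave -1.56 (genistein in PC3), 0.13 (genistein in DU145), -0.17 (wogonin in SAS), -0.41 (wogonin in FaDu), -0.17 (CXCL10 12 h) and -0.10 (CXCL10 24 h). The genistein value in PC3 stood far below the rest, and that in DU145 was the only one above 0. The difference between classes was 0.53 ± 0.20 (adjusted p = 0.24 by limma) and 0.88, 0.49 and 0.20 within the 3 slides. Without the genistein array of PC3 it was 0.28, the lowest value with any 1 array left out, and without all compound arrays 0.20.

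EIF2C4 (chr1:36320420-36320479) had a difference of 0.83 ± 0.24 (95% interval 0.33 to 1.32, adjusted p = 0.16 by limma), with 0.74, 1.19 and 0.55 within the 3 slides. This was the largest member difference as processed, but it was 0.40 with normexp and 0.49 with no background correction, below EIF2C2 (0.51 and 0.52), and 0.55 without the compound arrays. It was above 0 on 16 of 18 transfections (median 0.45, range -0.56 to 1.36). On the other arrays it was at -0.98 and 0.03 with genistein in PC3 and DU145, -1.40 and 0.03 with wogonin in SAS and FaDu, and 0.12 and -0.15 with CXCL10. The low mean of these arrays thus rested on 2 of them, genistein in PC3 and wogonin in SAS. Of the high transfection values, 1.36 (si-LAMB3 in FaDu) and 0.95 (miR-27b in A498) had a control signal not well above background, while 1.10 (miR-143 in DU145) and 1.0 (si-CAV2 in A498) had both channels above it.

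EIF2C1 was the steadiest member by its brightest probe only. Its brightest probe A_33_P3402116 (chr1:36389840-36389899) stayed between -0.30 and 0.37 on all 24 arrays and between 0.11 and 0.21 on the 6 without transfection, and the difference was -0.02 ± 0.09. The dimmer probe A_33_P3380587 (chr1:36386500-36386559) went from -1.47 (miR-24 in PC3) to 0.87 (miR-375 in FaDu), arrays on which the bright probe gave -0.30 and 0.37. The probes correlated at 0.671 over the 24 arrays, which share lines and slides, and had the same sign on 10 of them.

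EIF2C3 was read by A_23_P97021 (chr1:36521552-36521611) and A_33_P3244882 (chr1:36439052-36439111), whose ratios correlated at -0.10 and had the same sign on 9 of 24 arrays. Their differences were 0.15 ± 0.11 (adjusted p = 0.55 by limma) and 0.30 ± 0.13 (adjusted p = 0.29). With miR-375 in FaDu the probes were furthest apart, at -0.60 and 0.48. Because the probes part in this way, values of the brightest probe given for EIF2C3 and EIF2C1 stand for that probe and not for the gene. The difference of A_33_P3244882 was 0.20 without genistein in PC3.

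**Figure D3:**
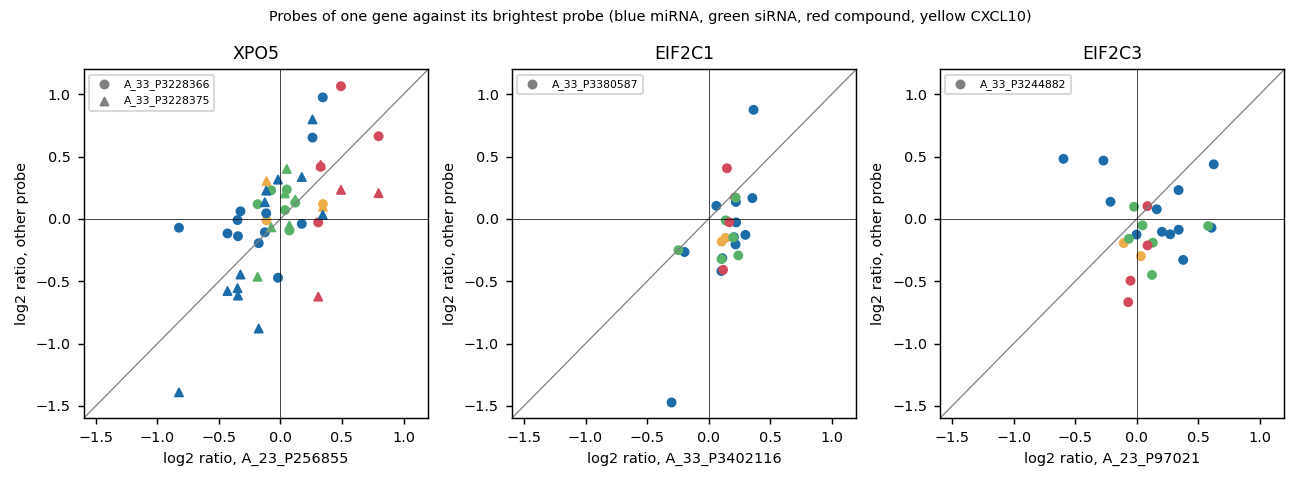
Log2 ratio of each further probe (vertical axis) against the brightest probe of the same gene (horizontal axis) on 24 arrays for XPO5, EIF2C1 and EIF2C3, with the line of equal values and colours for the class of treatment. XPO5 probes scatter around the line (correlations of 0.637 and 0.670), the EIF2C1 probe A_33_P3380587 spreads far more than the bright one, and EIF2C3 shows no slope (-0.10).

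TNRC6A (chr16:24835610-24835669) was above 0 on 17 of 18 transfections, from -0.25 to 1.74 with a median of 0.23. It was above 0 on 5 of the 6 other arrays too, from -0.64 to 0.51 with a median of 0.17. The difference was 0.29 ± 0.18 (adjusted p = 0.46 by limma), 0.18 without genistein in DU145 and 0.06 without the compound arrays. Its high values came with miR-24 in PC3 (1.74), si-LAMB3 in FaDu (1.23) and SAS (1.0), and miR-29a in SAS (0.62), all on the second slide, where the other 2 transfections, miR-23b and miR-27b in PC3, gave 0.13 and 0.08.

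TNRC6B (chr22:40719222-40719281) was below 0 on all 16 arrays of the first array design (slides 1 and 2) and ran from -0.25 to 0.34 on the 8 arrays of the second. It was the only member with a clearly negative median in both classes, -0.35 with transfection and -0.37 without, and the difference between them was 0.06 ± 0.12. Since the dyes were not swapped, this shared level cannot be told apart from dye bias, and the slide cannot be told apart from the design on the third slide.

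miRNA and siRNA transfections were then compared with each other (12 arrays against 6). Again 0 of 14 member probes passed, with 0 of all 22199 probes (0%), and at an unadjusted p under 0.05 there were 0 member probes and 1142 of all probes (5.14%). The median member difference was -0.01 against 0.00 over all probes.

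DICER1 had the largest difference between miRNA and siRNA, 0.44 ± 0.22 (95% interval -0.02 to 0.89, adjusted p = 0.95 by limma). The 12 miRNA arrays ranged from -0.29 to 1.39 with a median of 0.28, and 9 of them were above 0. The siRNA arrays were at -0.28 and 0.00 (si-CAV2 in A498 and 786O), 0.46 and -0.48 (si-LAMB3 in FaDu and SAS) and -0.09 and -0.23 (si-GOLM1 in DU145 and PC3). Most siRNA values were therefore at or below 0, but within the range of the miRNA arrays apart from si-LAMB3 in SAS. Within the 3 slides the difference was 0.46, 0.37 and 0.49.

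The next largest were EIF2C2 (0.26 ± 0.17), XPO5 probe A_33_P3228375 (-0.25 ± 0.26) and EIF2C3 probe A_33_P3244882 (0.22 ± 0.13), all with 95% intervals that include 0. The intervals still allow sizeable differences: for EIF2C4 (-0.21 ± 0.24) the interval was -0.71 to 0.30. These small differences moved with single arrays and settings: EIF2C4 was between -0.34 (without si-GOLM1 in DU145) and -0.04 (without si-LAMB3 in FaDu), -0.02 with no background correction, 0.0055 with normexp and -0.51 on the first design. A_33_P3228375 was at -0.13 without si-LAMB3 in SAS, -0.14 without miR-29a in SAS, -0.15 without miR-145 in LNCap and -0.07 with normexp, and EIF2C2 was at 0.43 on the first design.

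The genes whose ratios followed DICER1 most closely over the 24 arrays were IL2RG, ANXA8L2, SLC12A4, RPS6KA3 and PRSS23, with Pearson correlations from 0.671 to 0.701 among 13976 genes. The arrays share lines, slides and control cells, and without the miR-145 array of LNCap the correlations were between 0.381 and 0.615.

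On single arrays, a log2 ratio above 0.5 or below -0.5 was counted for each gene by its brightest probe. With transfection 22 of 180 member values (12.2%) were above 0.5 against 13.6% of all values of probes well above background, and 9 (5%) were below -0.5 against 11.4%. With the other treatments 5 of 60 (8.33%) were above, against 16.1%, and 7 (11.7%) below, against 11.8%. The members thus passed these limits no more often than probes at large.

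EIF2C4 passed most often, with 7 values above 0.5 and 3 below -0.5, followed by TNRC6B with 9 below, TNRC6A with 5 above and 1 below, and DICER1 with 4 above. EIF2C1 never did. miR-375 in FaDu had the most members past a limit: DROSHA, DGCR8 and EIF2C2 above 0.5 and EIF2C3, EIF2C4 and TNRC6B below -0.5. The other EIF2C3 probe was at 0.48 there. All 9 low TNRC6B values lay on the first array design, where TNRC6B was below 0 throughout, a level that cannot be told apart from dye bias. On the miR-375 array 50.1% of all values were past a limit. On the miR-24 array of PC3, where TNRC6A, EIF2C2 and EIF2C3 were above 0.5, 52.2% were. No member passed a limit on the CXCL10 and si-GOLM1 arrays, with si-CAV2 or miR-27b in 786O, or with miR-145 in DU145. On these arrays between 8.07% and 18.1% of all values did.

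The other genes of the pathway did not pass either. Of 65 genes in 3 lists (cofactors of processing, partners in loading and silencing, and deadenylation, decapping and decay) 62 were tested, and 0 passed in either comparison by limma, with 8 and 3 at an unadjusted p under 0.05. For transfection minus other treatments 37 were above 0 and 25 below, with a median of 0.05. The 3 largest differences were NCBP2, a subunit of the nuclear cap-binding complex (-0.56 ± 0.14, adjusted p = 0.13 by limma), ADAR, an RNA-editing deaminase (0.50 ± 0.28, adjusted p = 0.41), and DCP2, the decapping enzyme (-0.49 ± 0.29, adjusted p = 0.43). For miRNA minus siRNA they were DCP1B, a decapping cofactor (0.72 ± 0.43), DCP2 (-0.67 ± 0.29) and XRN1, the 5′ to 3′ exonuclease (0.58 ± 0.24), with adjusted p of 0.95, 0.94 and 0.94 by limma.

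**Figure D4:**
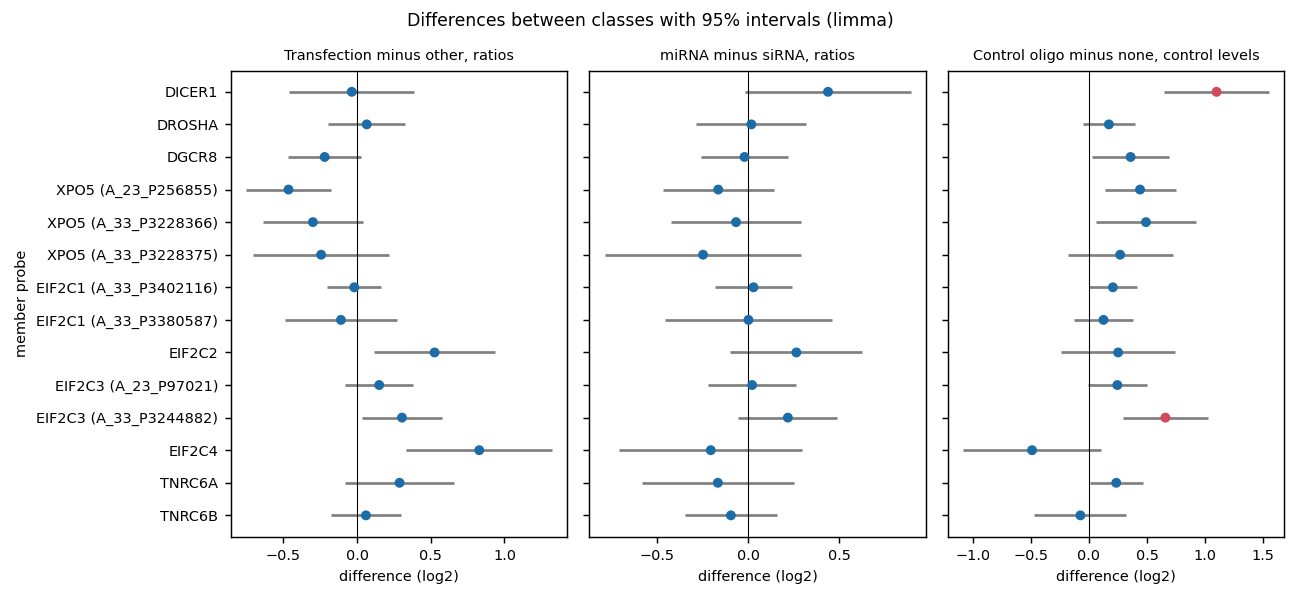
Differences for the 14 member probes with 95% intervals on the log2 scale, for transfection minus other treatments and miRNA minus siRNA (ratios) and for control oligo minus none (levels in control cells). Red points pass an adjusted p of 0.05, which only DICER1 (1.10) and EIF2C3 probe A_33_P3244882 (0.66) do, both in the right panel.

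The Cy3 channels give the level of each gene in control cells, as log2 signal minus the 75th percentile of the array. Levels differed between lines for 12 of 14 member probes (limma F test, highest adjusted p = 0.066, of XPO5 probe A_33_P3228366), as they did for 79.9% of all probes. This test took every control channel as independent, although channels of a line may share an RNA. It also had no term for the kind of control, which differed between lines. DROSHA was highest in SAS (mean 4.18, range 4.10 to 4.33, 3 arrays), followed by 786O (3.91, 3.67 to 4.05), DU145 (3.67, 3.25 to 3.91) and FaDu (3.57, 3.43 to 3.71). It was lowest in A498 (3.1), LNCap (3.08, 1 array) and PC3 (2.80, 2.69 to 3.1). The ranges of A498 (2.94 to 3.27) and PC3 overlapped only through the miR-145 array of PC3 (3.1). Over all controls the ranges of 786O, DU145 and FaDu overlapped, but these mix kinds of control. With control oligo alone they lay apart, at 3.43 to 3.58 in FaDu, 3.66 to 3.91 in DU145 and 4.04 to 4.05 in 786O.

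EIF2C2 was also highest in SAS (mean 2.88, range 2.75 to 3.12), then PC3 (2.28, 1.88 to 2.82), and lowest in A498 (0.51, 0.43 to 0.58), with 786O, DU145 and FaDu overlapping in between. A498 also had the lowest means of XPO5 (-0.84), EIF2C3 (-0.46) and EIF2C4 (-4.36), by their brightest probes. In FaDu the means of TNRC6A (1.04), TNRC6B (1.47) and DICER1 (2.33) were the highest of all lines. DGCR8 was highest in DU145 (0.25) and lowest in SAS (-1.17). EIF2C1 spanned the narrowest range of line means among the brightest probes, from 2.12 in FaDu to 2.94 in A498.

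DICER1 levels split within lines by the label of the control cells, which was noticed in these values and then tested. In PC3 the untreated control cells of the genistein array were at -0.26, and the 6 arrays of control oligo (control miRNA or siRNA) at 0.61 to 1.19. In DU145 the untreated cells were at 1.0 and the 3 oligo controls at 1.82 to 1.98. In 786O the untreated cells of the CXCL10 arrays were at -0.77 (12 h) and -1.01 (24 h) and the 2 oligo controls at 0.99 and 1.49.

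Untreated is used here as in the labels, although the paper states that genistein controls (here PC3 and DU145) received dimethylsulfoxide as vehicle. All 4 controls labelled untreated lay below every oligo control of their line. The DMSO controls of wogonin did so in FaDu (1.82 against 2.22 and 2.95) but not in SAS (1.75 against 1.49 and 1.85). Over the 5 lines with both kinds (15 control channels with an oligo and 6 without, limma with terms for line and slide) DICER1 was 1.10 ± 0.21 higher with an oligo (95% interval 0.65 to 1.55, adjusted p = 0.015), where 7.12% of all 22199 probes passed. Since the comparison was chosen for these values, the p is a description and not independent evidence.

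**Figure D5:**
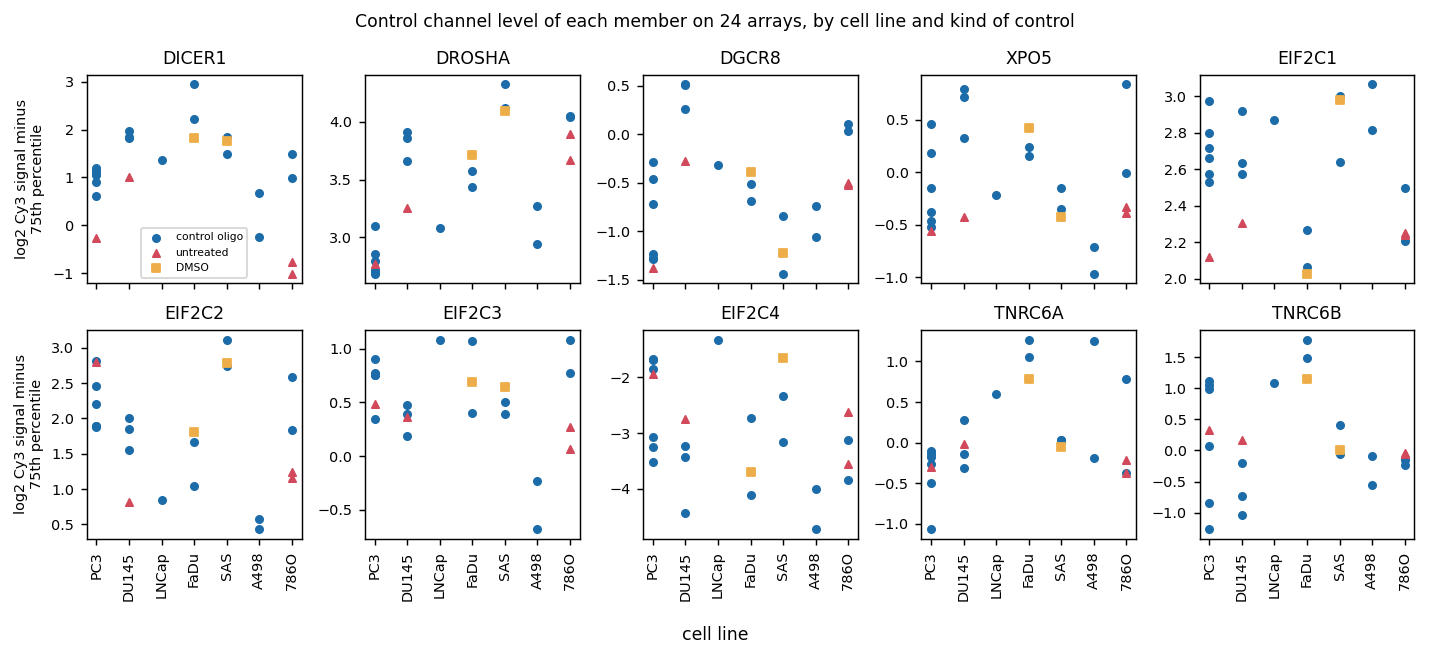
Level of each gene in the control channel (log2 Cy3 signal minus the 75th percentile of the array, by the brightest probe) in the 7 cell lines, 1 point per array, as circles for control oligo, triangles for untreated and squares for DMSO controls. Triangles of DICER1 lie below the circles in PC3, DU145 and 786O.

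EIF2C3 probe A_33_P3244882 was the other member to pass (0.66 ± 0.17, adjusted p = 0.035 by limma), with all 4 untreated controls below the oligo controls of their line, but the brighter EIF2C3 probe did not (0.25 ± 0.12, adjusted p = 0.20). The call of A_33_P3244882 was lost without any 1 of 7 arrays, namely genistein, miR-145 or miR-143 in DU145 and si-CAV2, miR-27b, CXCL10 12 h or CXCL10 24 h in 786O (differences of 0.52 to 0.66, adjusted p of 0.050 to 0.13). Of the 14 member probes 12 were higher with an oligo and 2 were lower (EIF2C4, -0.49 ± 0.28, and TNRC6B, -0.07 ± 0.19), with a median of 0.25 against 0.06 over all probes. XPO5 probe A_23_P256855 (0.44 ± 0.14, adjusted p = 0.072 by limma) and DGCR8 (0.36 ± 0.16, adjusted p = 0.15) also had all 4 untreated controls below the oligo controls. The other XPO5 probes, A_33_P3228366 and A_33_P3228375, had 3 and 2 of them below. The reverse was seen for TNRC6B, with 3 untreated controls above every oligo control of their line, and for EIF2C4, with 2. How often all 4 fall below among all probes was not counted, so this split is a description only. Both A_23_P256855 and DGCR8 passed without miR-375 in FaDu (0.52 and 0.46) or without wogonin in FaDu (0.61 and 0.53), as did A_33_P3228366 (0.65 and 0.73). In those fits 4988 and 4444 of all probes passed, against 1580. EIF2C4 passed without miR-375 in FaDu (-0.75, adjusted p = 0.012 by limma) and was at -0.18 with normexp.

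The labels do not say which control channels share an RNA. With control channels of one line, slide and kind averaged, the DICER1 difference was 1.05 and no longer passed (adjusted p = 0.23 by limma), and 0 of all probes did, against 3300 at an unadjusted p under 0.05. Without the DMSO controls of wogonin, DICER1, DGCR8, both EIF2C3 probes and 2 of 3 XPO5 probes passed, as did 5032 of all probes. Without the controls labelled untreated, DICER1 was at 0.41 (adjusted p = 0.81 by limma) and 0 of all probes passed (1717 at an unadjusted p under 0.05). Both fits split the controls by label. By the paper's account the genistein controls had DMSO too, so the split may not part untreated cells from DMSO. The untreated cells also differed from oligo controls in agent, array and any handling the labels leave out, whose part in the result was not tested.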

How the data were processed

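RNA of 24 treated and control cell cultures was hybridized on 2 designs of Agilent 8×60K arrays. The authors deposited the output of Agilent Feature Extraction 10.7.3.1. Its intensity values per spot are mean, background and processed signals, and its deposited log10 ratio is Cy5 over Cy3 after background and dye correction, which was multiplied by 3.3219 to log2. The authors' series matrix held the same values. Deposited p-values were not used here. Depth has no meaning for arrays, and their number limits the precision.

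Control spots and outlier flags were dropped and spots of 1 probe averaged. Probes of both designs well above background in at least 24 of 48 channels were tested with limma 3.58.1 (R 4.3.3, otherwise Python 3.11.15) with slide as a term and Benjamini-Hochberg adjustment over 22199 probes. All 10 members were named, each by its brightest probe where 1 was needed. Of the other pathway genes, those past the limit were to be named, or the 3 largest. Members and lists were chosen with earlier results of these data known, and the control oligo comparison and its alternatives after seeing the values. In tests on simulated data with 200 changed probes, the fit found 7 at a log2 change of 0.5 and 145 at 1 for transfection minus other treatments, 12 and 116 for miRNA minus siRNA, and 16 and 137 for control oligo minus none. Alternatives varied slide, background, centring, filter, agents and arrays. The marker check of the prostate lines is not reported here.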

Additional observations from a re-analysis of the deposited data

Results flagged for a closer look

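The groups checked here hold the same arrays for each gene, and those of a line mix kinds of control. They are thus not independent, and their count was not tested against the chance rate. In groups of 4 to 10 arrays, 8 of 50 groups held a sample far from the others, where chance gives about 1 in 20. For DICER1 these were the untreated control levels already described, -0.26 in PC3 (the others 0.61 to 1.19) and 1.0 in DU145 (1.82 to 1.98). The DROSHA control level of the miR-145 array in PC3 was 3.1 (2.69 to 2.86). The EIF2C1 control level of the miR-27b array in 786O was 2.50 (2.21 to 2.25). TNRC6A control levels stood apart at -1.07 on the miR-143 array in PC3 (-0.50 to -0.10) and at 0.78 on the si-CAV2 array in 786O (-0.38 to -0.21). Among siRNA ratios, si-LAMB3 in SAS stood apart for EIF2C1 at -0.24 (0.11 to 0.24) and for EIF2C3 at 0.58 (-0.06 to 0.13).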

How the results depend on the processing

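Over the alternatives, members kept their side of the limit in all 502 values of transfection minus other treatments (lowest adjusted p = 0.066) and all 390 of miRNA minus siRNA (0.60). All probes called in the first comparison numbered 76 on the 16 arrays of the first design (26 higher, 50 lower) and 780 without the CXCL10 arrays (261 higher, 519 lower), and 0 to 47 with 1 array left out, most without CXCL10 24 h (47) or 12 h (17), then miR-375 in FaDu (7), with 1 or 2 without genistein or si-GOLM1 in DU145, si-CAV2 in A498 or 786O, si-LAMB3 in FaDu or miR-29a in SAS. For miRNA minus siRNA they stayed at 0, and for cell lines at 17089 to 18334.

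Differences near 0 changed sign. Without the compound arrays, transfection minus other treatments was 0.23 for DICER1 and 0.15 and 0.11 for EIF2C1 probes A_33_P3380587 and A_33_P3402116, and with median centring 0.0046 for the latter. Leaving out 1 array gave -0.12 to 0.060 for DICER1, -0.015 to 0.098 for DROSHA, -0.045 to 0.017 for EIF2C1 probe A_33_P3402116 and -0.022 to 0.13 for TNRC6B.

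For miRNA minus siRNA, EIF2C1 probe A_33_P3380587 was -0.015 with line as a random block, -0.00055 with normexp, -0.010 with 1 value per agent and -0.042 on the first design. DGCR8 was 0.0013 with normexp, 0.0013 with no background correction and 0.013 per agent, and EIF2C4 was 0.0055 with normexp. Per agent, XPO5 probe A_33_P3228366 was 0.066 and EIF2C1 probe A_33_P3402116 -0.027, and on the first design the latter was -0.0066 and EIF2C3 probe A_23_P97021 -0.054. With 1 array left out the ranges were -0.092 to 0.12 (EIF2C1 A_33_P3380587), -0.0093 to 0.072 (EIF2C1 A_33_P3402116), -0.059 to 0.025 (DGCR8), -0.043 to 0.085 (DROSHA) and -0.046 to 0.065 (EIF2C3 A_23_P97021).

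For control oligo minus none, the 1580 probes called became 680 without the slide term, 641 without the filter, 5032 without DMSO controls, 0 without untreated controls (1717 at an unadjusted p under 0.05 by limma), 0 with channels averaged (3300) and 231 (without genistein in DU145) to 4988 (without miR-375 in FaDu) with 1 array left out. It moved by over 1.5 times without any of 12 of the 21 arrays, the others being wogonin in FaDu (4444), genistein in PC3 (756), miR-24 (1052) and miR-27b (1046) in PC3, miR-143 (929) and si-GOLM1 (1037) in DU145, and miR-27b (864), si-CAV2 (376), CXCL10 12 h (573) and 24 h (410) in 786O. DICER1 passed with any 1 array left out (0.89 to 1.34, highest adjusted p = 0.043 by limma). Without untreated controls it was 0.41 (adjusted p = 0.81), and EIF2C2 was -0.16, XPO5 -0.045, -0.093 and -0.24 by its 3 probes, EIF2C3 probe A_23_P97021 -0.15, DROSHA -0.091, DGCR8 -0.16 and TNRC6B 0.54. TNRC6B ranged from -0.30 to 0.13 with 1 array left out. EIF2C3 probe A_33_P3244882 was 0.66 without the filter (adjusted p = 0.064). On single arrays, 6 values were above 1.0 and 2 below -1.0, and 10 were below -0.5 with normexp. The causes of these changes were not tested. No paired analysis was possible because the replicate numbers of the arrays pair no samples. Arrays of 1 line were tied together by line as a random block (estimated correlation -0.010 for transfection minus other treatments and -0.042 for miRNA minus siRNA), which changed no call.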
